A study of Mus musculus with 17 samples.

Results

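Gata1, Zfpm1, Klf1, Nfe2, Gfi1 and Gfi1b encode transcription factors and cofactors of the erythroid and megakaryocyte lineages, and they were chosen by name, as 6 of the 21887 protein-coding genes on the chromosomes used. Each was followed through a window of its gene body and 50 kb on either side in mm10. ChIP-seq peaks for RUNX1, a haematopoietic transcription factor, and for CHD7, a chromatin remodeller, were compared in the mouse line 416B, which the labels describe as myeloid progenitors, with 8 libraries per antibody. The 4 conditions had 2 libraries each per antibody: CM +Dox, cells with the inducible CBFB-MYH11 (CM) fusion construct given 1 ug/ml doxycycline for 24 hours; CM -Dox, the same construct without doxycycline; Control +Dox, cells with a construct lacking the fusion and given doxycycline; and Control -Dox, those cells without it. All cells also carried the tetracycline silencer, the transactivator and a blasticidin resistance gene, and both constructs were stably integrated into cells grown out as selected clones, so each construct may stand for few clones. The fusion joins CBFB, the partner subunit of RUNX1, to a smooth muscle myosin tail and is found in acute myeloid leukaemia with an inversion of chromosome 16. Peak lists hold no expression values, so the labelled cell type could not be checked on marker levels.

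GATA1 is the central erythroid and megakaryocyte activator, and FOG1, the product of Zfpm1, is its zinc finger cofactor, which can bring in the NuRD corepressor complex. KLF1 activates adult globin genes and many other red cell genes, and NFE2 pairs with small MAF proteins to activate platelet and globin genes. GFI1 and GFI1B are related zinc finger repressors that recruit the LSD1 and CoREST corepressors, GFI1 mainly in stem cells and granulocytes and GFI1B mainly in red cell and platelet precursors. RUNX1 binds DNA at its own motif and is required for normal megakaryocyte maturation.

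The lists held 8140 to 16163 RUNX1 peaks and 16323 to 37698 CHD7 peaks, and read depth behind them is unknown. Cbfb and Myh11 intervals, 7 in all, were called in all 4 CM +Dox libraries and in none of the 8 control libraries, which checks the fusion label. The library labelled Control -Dox RUNX1 replicate 1 has peak names tagged +Dox, against its label; it was kept under the label, and leaving it out changed none of the counts of RUNX1 sites that were called in all 8 libraries, missing from CM +Dox, found only there, or placed apart there. Overlapping peaks of an antibody were merged into sites, and a library called a site if any of its own peaks fell on it. Position in a list was read from the authors' score, the −log10 of the peak's p-value, either as a percentile rank (100 the highest score) or as a place (1 the highest score). Ranks and places give the order of peaks within 1 list and are not amounts of binding.

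Of the promoters in the RefSeq table, that of Zfpm1 carried RUNX1 in all 8 libraries, while those of Klf1 and Gfi1b carried no peak of either antibody in any of the 16 libraries, although both genes had RUNX1 sites in the body or downstream. The 250 bases before these 3 starts, on the strand of the gene, are shown to set the Zfpm1 promoter, where RUNX1 was called, beside 2 promoters where it was not. They come from RefSeq (GRCm38.p6, the assembly of mm10), and capitals mark every match, on either strand, to the letters searched for. These were TGNGGT, bound by the RUNX family; AGATAA and its variant TGATAA, bound by the zinc fingers of GATA1 and its relatives; GGAAGT, bound by the ETS family; CCNCNCCC, bound by the KLF family; and TGCTGAG, bound by NFE2 with a small MAF partner.
Zfpm1, chr8:122281891-122282140, plus strand: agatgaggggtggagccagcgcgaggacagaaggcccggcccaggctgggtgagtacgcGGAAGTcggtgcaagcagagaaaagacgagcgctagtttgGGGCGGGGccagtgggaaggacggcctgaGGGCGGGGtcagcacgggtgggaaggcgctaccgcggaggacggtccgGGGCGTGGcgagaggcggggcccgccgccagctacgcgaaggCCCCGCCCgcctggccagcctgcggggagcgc
Klf1, chr8:84901732-84901981, plus strand: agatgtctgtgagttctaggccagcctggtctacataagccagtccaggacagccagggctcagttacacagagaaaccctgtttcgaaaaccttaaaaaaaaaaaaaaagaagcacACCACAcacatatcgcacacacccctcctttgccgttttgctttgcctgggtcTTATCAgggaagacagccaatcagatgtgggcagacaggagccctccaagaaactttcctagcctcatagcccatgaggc
Gfi1b, chr2:28621983-28622232, minus strand: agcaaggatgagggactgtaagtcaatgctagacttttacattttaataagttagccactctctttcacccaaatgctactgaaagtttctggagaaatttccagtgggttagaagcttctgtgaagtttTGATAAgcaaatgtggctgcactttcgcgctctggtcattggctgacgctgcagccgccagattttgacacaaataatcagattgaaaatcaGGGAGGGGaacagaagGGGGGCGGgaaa
The Zfpm1 stretch held 1 ETS match and 4 KLF matches and no RUNX match. The Klf1 stretch held 1 RUNX match (ACCACA, the TGNGGT letters on the other strand) and 1 GATA match, and the Gfi1b stretch held 1 GATA match and 2 KLF matches. In the same 250-base stretch of all 32851 promoters in the table, 40.1% held the RUNX letters, 16.6% the GATA letters, 19.7% the ETS letters, 45.9% the KLF letters and 6.21% the MAF letters. The RUNX1 site on the Zfpm1 start is 1056 bp wide and reaches beyond the stretch shown, and a missing match says only that these letters are not in this window. Promoters of 5 of the 6 genes were in the table, Gfi1 with 2 starts, and neither antibody was called at either Gfi1 start or at the Gata1 start in any library.

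RUNX1 was called at 39 sites in the 6 windows and CHD7 at 67. Zfpm1 had 13 RUNX1 sites, Nfe2 had 11, Gfi1b had 6, Klf1 and Gfi1 had 4 each, and Gata1 had 1. CHD7 was spread differently, with 38 of its 67 sites in the Nfe2 window, 9 in the Gfi1 window, 8 in the Gfi1b window, 7 in the Klf1 window, 4 in the Zfpm1 window and 1 in the Gata1 window. Many CHD7 sites came from a single library: 29 of 67, against 59.5% of all CHD7 sites, while 5 of 39 RUNX1 sites did, against 19.2% of all RUNX1 sites. In all, 28 RUNX1 sites and 24 CHD7 sites were called in 3 or more libraries. The windows also hold neighbouring genes, and a peak inside one of them is named by that gene.

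RUNX1 was called in all 6 libraries without induced fusion at 21 of the sites. Of these, 15 were also called in both CM +Dox libraries, against 56.7% of all such sites in the genome. Another 5 were missing from both CM +Dox lists, against 27.9% of all such sites, and 1 was called in 1 CM +Dox library, against 15.4%. The share missing, 23.8% of the 21, was near that of all sites, so the windows do not stand apart in this count. No RUNX1 site of the 20 called in both CM +Dox libraries was missing from all 6 other lists, against 2.65% of all such sites; 1 site met that pattern when CM +Dox replicate 1, CM -Dox replicate 2 or Control +Dox replicate 2 was left out. The balance depended on list length: limited to the 8140 highest peaks of each list, 2 of 14 sites were missing from CM +Dox (23.9% of all such sites) and 4 of 19 were found only there (14.6%). Those 4 lay at Nfe2 (chr15:103252736-103253066), Klf1 (chr8:84908397-84908823), Zfpm1 (chr8:122376443-122376722) and Gata1 (chrX:7947812-7948174), and each was called in 1 to 4 of the 6 other libraries when whole lists were used. In an exact permutation test over the 28 choices of 2 of 8 libraries, two-sided, no RUNX1 site in the genome passed a Benjamini-Hochberg adjusted p of 0.05 (the smallest was 0.302), while 2565 of 21664 sites (11.8%) and 5 of the 39 sites here had the smallest unadjusted p, 0.0357. The 5 were the sites missing from both CM +Dox lists and called in the other 6, so each split the libraries completely, and 8 libraries cannot show more. With the replicate number as a block the smallest p is 0.0625, so 0 sites reach an unadjusted 0.05.

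**Figure D1:**
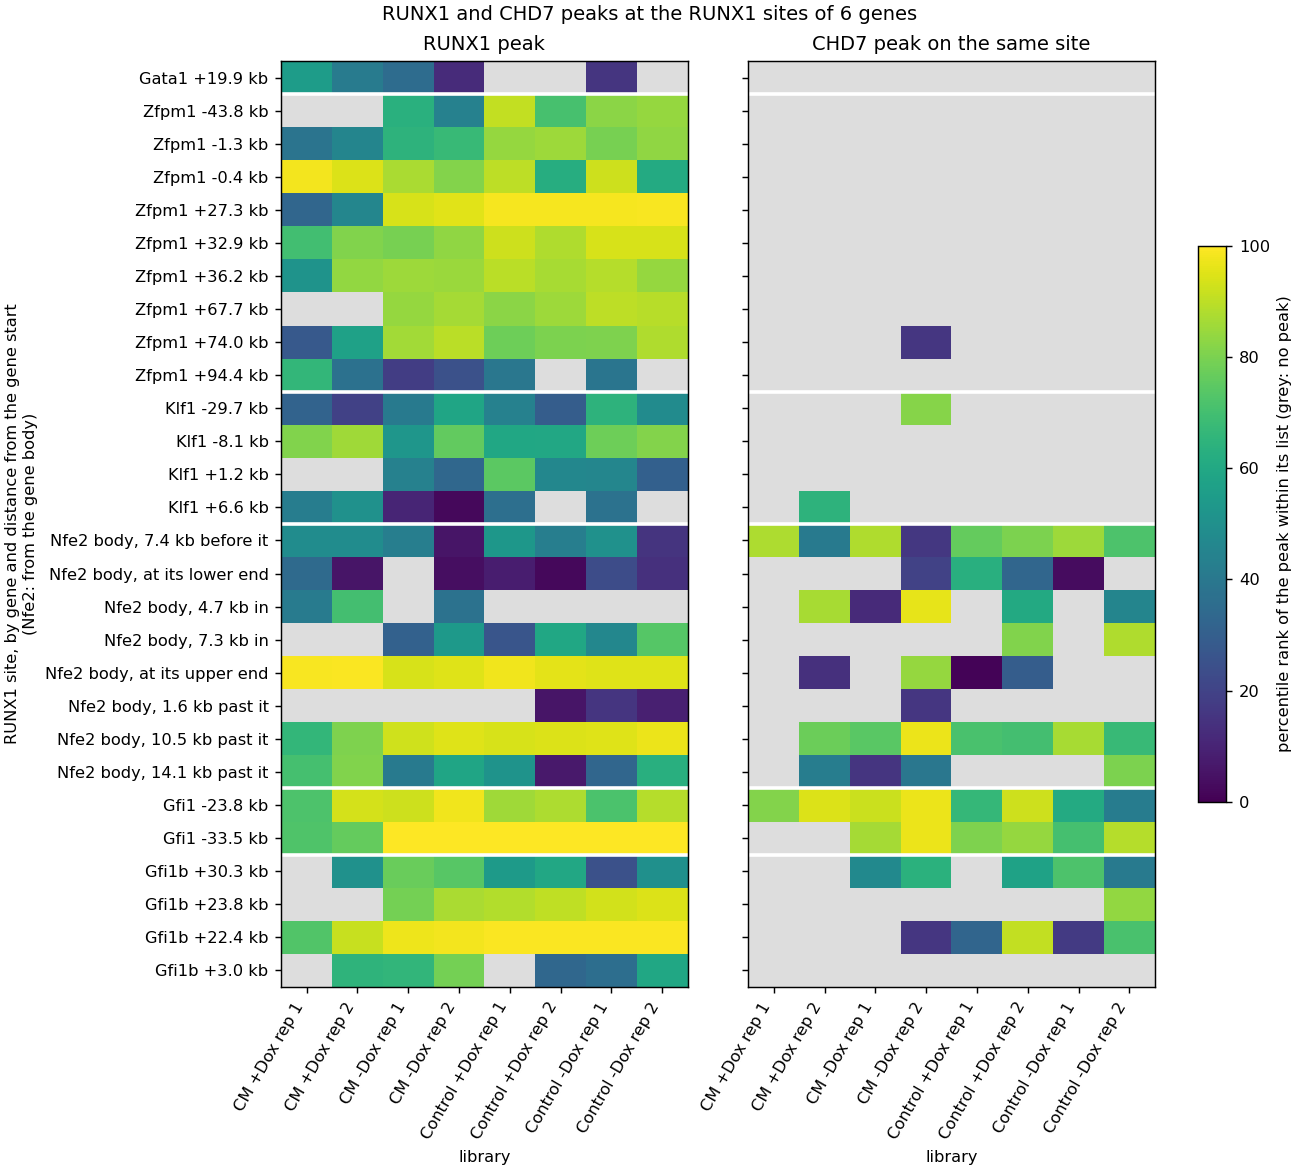
Percentile rank (colour, 100 the highest score) of the RUNX1 peak (left panel) and of a CHD7 peak on the same site (right panel) at each RUNX1 site called in 3 or more libraries; rows are sites by gene, columns are libraries with the 2 CM +Dox libraries at the left, and grey is no peak. Of the 21 sites called in all 6 libraries without induced fusion, 15 were called in both CM +Dox libraries and 5 in neither.

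The 5 sites missing from the CM +Dox lists lay in 4 windows, 2 of them in that of Zfpm1. The Gfi1b site 23.8 kb downstream of the start (chr2:28597955-28598464, between genes) had percentile ranks of 79.1 and 87.2 in CM -Dox, 88.5 and 90.6 in Control +Dox and 93.3 and 94.6 in Control -Dox cells. The Zfpm1 site 67.7 kb downstream of the start (chr8:122349495-122350202, between genes, nearest Trhr2) ranked between 82.6 and 90.1 in the 6 libraries, with a median of 86.0. Both ranked at 79.1 or above in every list that called them. They were also the pair that stayed missing when every list was limited to its 8140 highest peaks.

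The other 3 ranked lower or varied more. The Zfpm1 site 43.8 kb upstream of the start, inside Zfp469 (chr8:122238160-122238550), ranked 63.5 and 43.9 in CM -Dox, 90.8 and 70.8 in Control +Dox and 82.7 and 84.2 in Control -Dox cells. The Klf1 site 1.2 kb downstream of the start, inside the gene (chr8:84903035-84903360), ranked between 30.6 and 74.9 with a median of 44.9. The site in the Nfe2 body (chr15:103255321-103255614) ranked between 26.2 and 73.5 with a median of 50.2. Over the 5 sites, the median of the mean ranks in libraries without induced fusion was 72.7, against 86.6 over the 15 sites that stayed called in all 8 libraries; over all sites of the genome the same medians were 57.6 and 71.7. Limited to the 8140 highest peaks of each list, the Klf1 and Nfe2 body sites and the Zfpm1 site 43.8 kb upstream no longer met the pattern.

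Position relative to gene ends divided the 21 sites. Of the 13 that lay more than 1 kb from either end of any protein-coding gene, 5 were missing from both CM +Dox lists, against 34.1% of all such sites in the genome. Of the 8 within 1 kb of a gene end, 0 were missing, against 14% of all such sites. The same split is seen in the genome, so it is not particular to these genes. Whether a gene end here is a promoter cannot be told from the gene table used, and the promoter table was not used for this split. Among the 8, the site on the Zfpm1 start covered the promoter of that gene.

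The 15 sites called in all 8 libraries differed in where the CM +Dox lists placed them. At 5 of the 15, both CM +Dox places were below those of all 6 other libraries, against 15.1% of all 4833 sites called in all 8. At another 5 both were above all 6 others, against 34.8%, and at the last 5 the groups overlapped. By percentile rank the split differed. The Zfpm1 sites 1.3 kb upstream and 36.2 kb downstream of the start also stood below all 6 others. The Klf1 site 8.1 kb upstream and the Cbx5 and Hnrnpa1 site overlapped rather than stood above. Shares over all sites were computed for places only, and the counts that follow are by place. The CM +Dox lists were short, which bounds their places; with equal lists of 8140 peaks, 5 of the 12 sites still called in all 8 stood below (22.6% of all such sites) and 3 above (25.3%). Of the 7 sites more than 1 kb from a gene end, 4 stood below, against 21.3% of such sites in the genome, and 0 stood above, against 24.7%. Of the 8 at a gene end, 1 stood below, against 5.7%, and 5 stood above, against 50.2%. No site in the genome passed an adjusted p of 0.05 in the exact permutation test of log2 place (two-sided, 28 choices, Benjamini-Hochberg over the 4833 sites; 2145 sites, 44.4%, had an unadjusted p of 0.0357, and the smallest adjusted p was 0.0805). Here and in the tests of calls, no site can pass unless most sites reach the smallest p. The adjusted p therefore does not tell single sites apart. The test of place was not run with the replicate number as a block, whose 16 choices allow no p below 0.0625.

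**Figure D2:**
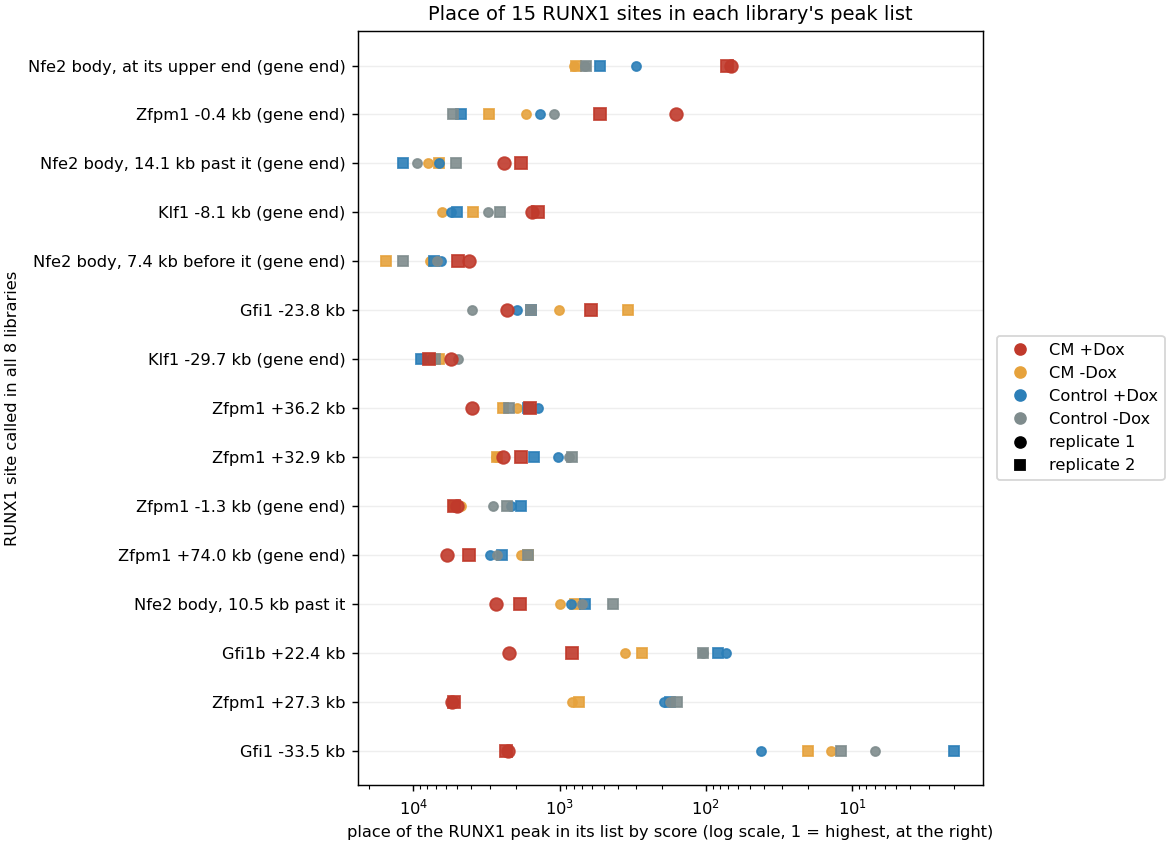
Place in the list (log scale, 1 the highest score) at 15 RUNX1 sites that every library called, one row per site, with a point for each library coloured by condition and shaped by replicate; the highest scores are at the right. At 5 sites both CM +Dox places lie below those of the 6 other libraries and at 5 they lie above.

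The site 33.5 kb upstream of the Gfi1 start, inside the neighbouring gene Evi5 (chr5:107759023-107759608), was among the highest scored peaks of every list without induced fusion. Its places were 2245 and 2307 in CM +Dox cells, against 14 and 20 in CM -Dox, 42 and 2 in Control +Dox and 7 and 12 in Control -Dox cells. As percentile ranks these were 72.4 and 76.2 in CM +Dox cells and 99.7 to 100 elsewhere. The log2 place was 7.67 larger in CM +Dox (exact permutation p = 0.0357, adjusted p = 0.0805), the widest separation among the 15 sites, and the groups did not overlap.

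CHD7 was missing from the CM +Dox lists at the same place. Its site (chr5:107758848-107759787) was called in all 6 libraries without induced fusion, at ranks of 86.4 and 97.2 in CM -Dox, 80.8 and 84.3 in Control +Dox and 70.7 and 88.7 in Control -Dox cells, and in neither CM +Dox library. RUNX1 was still called there in both CM +Dox libraries. Among the 1837 RUNX1 sites of the genome that were called in all 8 libraries with CHD7 in all 6 libraries without induced fusion, CHD7 was absent from both CM +Dox lists at 4.03%, and here at 1 of 4. RUNX1 and CHD7 were immunoprecipitated in separate libraries, so calls at 1 site do not show that both sat on the same DNA molecules.

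The second Gfi1 site, 23.8 kb upstream and also in Evi5 (chr5:107749244-107750054), gave another picture. Its RUNX1 places were 2279 and 612 in CM +Dox cells, against 1011 and 343 in CM -Dox, 1962 and 1560 in Control +Dox and 3971 and 1562 in Control -Dox cells. The groups overlapped, with a log2 difference of -0.21 (exact permutation p = 0.893, adjusted p = 0.922). CHD7 was called there in all 8 libraries, at ranks of 81.5 and 94.9 in CM +Dox, against 91.8 and 97.2 in CM -Dox, 66.5 and 92.5 in Control +Dox and 61.3 and 41.9 in Control -Dox cells. The other 2 RUNX1 sites of the window were each called in 1 library. Within 1 window, then, the upstream site stood far lower in the CM +Dox lists and the other did not.

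**Figure D3:**
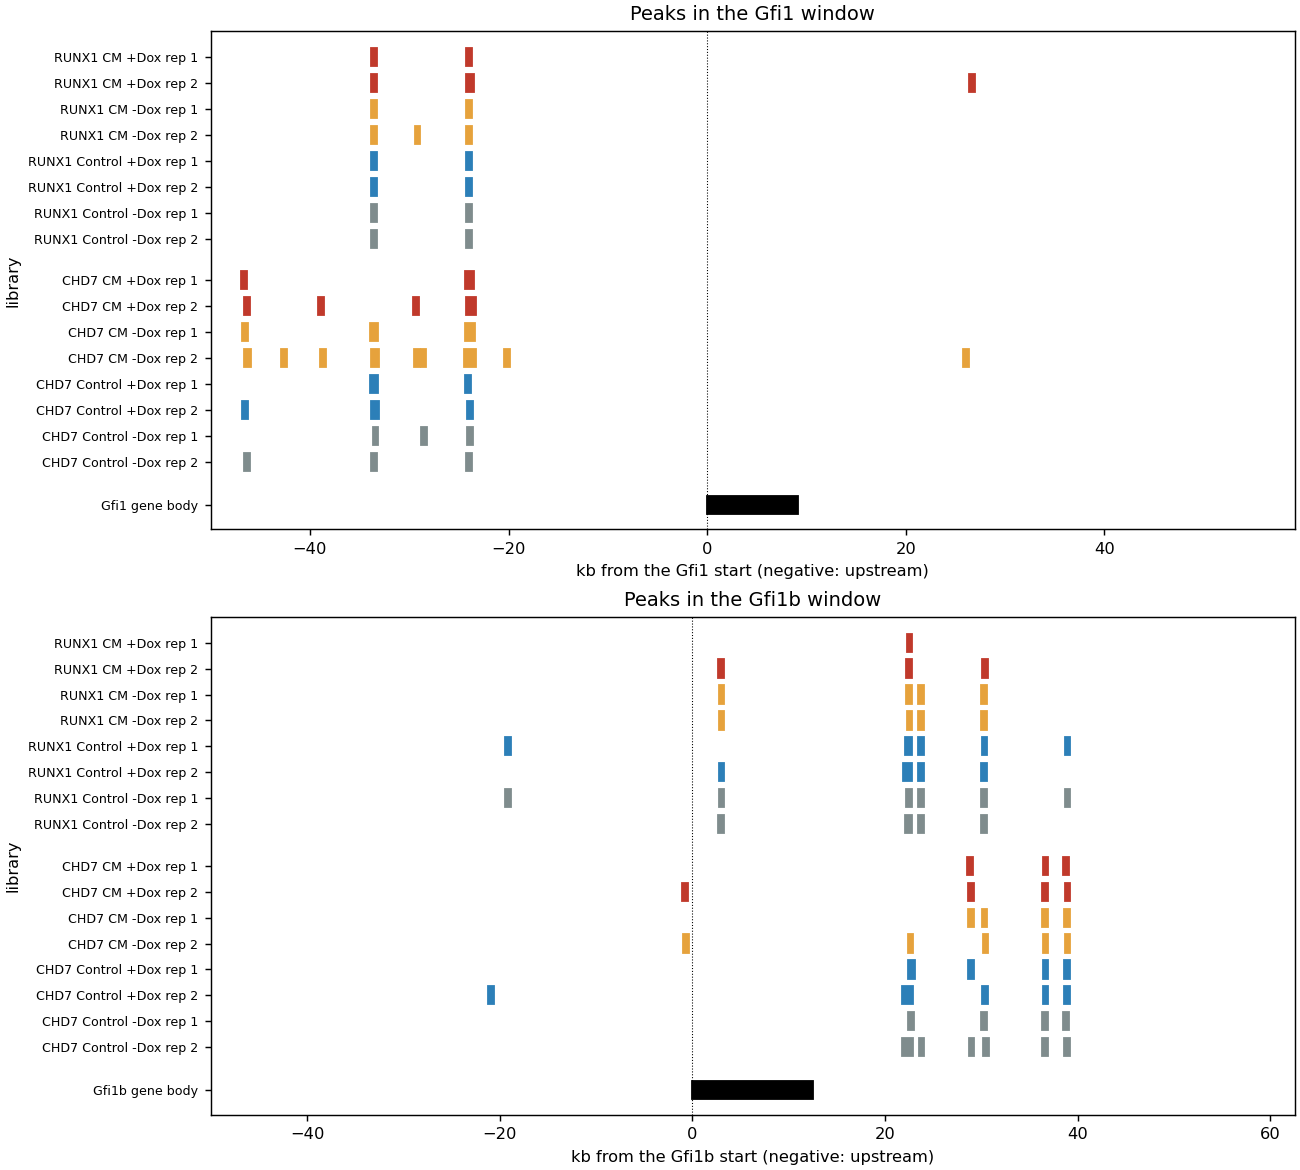
RUNX1 and CHD7 sites around Gfi1 and Gfi1b, in kb from the gene start, with 1 row per library, RUNX1 above CHD7 and the CM +Dox libraries on top; each mark is a called peak, its colour is the condition, and the black bar is the gene body. At the Gfi1 site 33.5 kb upstream, RUNX1 is called in all 8 libraries and CHD7 in 6, and on the RUNX1 sites 22.4 and 30.3 kb downstream of the Gfi1b start no CHD7 peak is called in CM +Dox cells.

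Gfi1b had 3 RUNX1 sites called in all 6 libraries without induced fusion, all downstream of the gene. The site 22.4 kb from the start (chr2:28599150-28600058) was at places 2213 and 821 in CM +Dox cells, against 359 and 275 in CM -Dox, 73 and 83 in Control +Dox and 105 and 104 in Control -Dox cells. The log2 difference was 3.30 (exact permutation p = 0.0357, adjusted p = 0.0805) and the groups did not overlap. The CM -Dox places also lay below all 4 control places. The site 23.8 kb from the start, described above, was only 685 bp further out and was missing from both CM +Dox lists.

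The third Gfi1b site, 30.3 kb downstream (chr2:28591392-28591957), was called in 1 of 2 CM +Dox libraries, at a rank of 50.6, against ranks of 24.9 to 77.0 in the 6 others. CHD7 was called at the sites 22.4 and 30.3 kb downstream in 5 of the 6 libraries without induced fusion each, and in neither CM +Dox library. Each missed the pattern of being called in all 6 by 1 library, so neither is in the counts of CHD7 given below. CHD7 was strongest 38.8 kb downstream, at an end of Gtf3c5 (chr2:28582821-28583527), where it ranked 98.4 and 98.1 in CM +Dox and between 96.0 and 98.4 in the 6 other libraries. RUNX1 was called there in 2 of 8 libraries, neither of them CM +Dox. Inside Gfi1b itself, RUNX1 was called at chr2:28618777-28619126, at a rank of 64.9 in CM +Dox replicate 2 alone, 66.0 and 79.1 in CM -Dox, 33.5 in Control +Dox replicate 2 alone and 36.0 and 59.7 in Control -Dox cells.

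In the Zfpm1 window, 6 RUNX1 sites were called in all 8 libraries, and 5 of these had no CHD7 peak in any library. The site 27.3 kb downstream of the start, inside the gene (chr8:122309185-122309718), was at places 5450 and 5266 in CM +Dox cells, against 821 and 733 in CM -Dox, 192 and 177 in Control +Dox and 176 and 157 in Control -Dox cells. Its log2 difference was 4.22 (exact permutation p = 0.0357, adjusted p = 0.0805). The groups did not overlap, and the CM -Dox places were again below all 4 control places. The site on the Zfpm1 start (chr8:122281193-122282248), which covers the promoter printed above, stood the other way: places 159 and 530 in CM +Dox, against 1705 and 3025 in CM -Dox, 1368 and 4745 in Control +Dox and 1092 and 5378 in Control -Dox cells. Its log2 difference was -3.05, with the same p-values, and the groups did not overlap.

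A further pair of Zfpm1 gene-body sites, 32.9 and 36.2 kb downstream of the start, overlapped between the groups by place, with log2 differences of 0.60 (adjusted p = 0.503) and 0.45 (adjusted p = 0.395) in the exact permutation test. By percentile rank the site 36.2 kb downstream stood narrowly below, at 51.4 and 83.7 in CM +Dox, against 84.0 to 89.8 in the 6 others. The site 1.3 kb upstream of the start was at places 5026 and 5293 in CM +Dox, against 4727 and 5248 in CM -Dox, 2143 and 1830 in Control +Dox and 2855 and 2277 in Control -Dox cells, so by place only the controls stood apart. By percentile rank this site stood below all 6 others in CM +Dox cells, at 38.3 and 45.5, against 64.7 to 85.5. It lay next to the start site that stood higher in CM +Dox cells. The last of the 6, 74.0 kb downstream at an end of Trhr2, was at places 5856 and 4163 in CM +Dox cells and 1654 to 2987 in the 6 others (log2 difference 1.20, exact permutation p = 0.0357, adjusted p = 0.0805). The 4 CHD7 sites of the window were called in at most 2 libraries each.

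Nfe2 had 4 RUNX1 sites called in all 8 libraries. The site on the upper coordinate end of the gene (chr15:103258159-103258823) was at places 67 and 72 in CM +Dox cells, against 792 and 777 in CM -Dox, 302 and 530 in Control +Dox and 674 and 660 in Control -Dox cells. With a log2 difference of -3.10 (exact permutation p = 0.0357, adjusted p = 0.0805) it stood above all others, in the top 100 peaks of both CM +Dox lists. The site 10.5 kb beyond that end, between genes (chr15:103268908-103269309), went the other way, at 2733 and 1876 in CM +Dox cells, against 991 and 790 in CM -Dox, 832 and 670 in Control +Dox and 699 and 434 in Control -Dox cells (log2 difference 1.67, same p-values).

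The 2 remaining Nfe2 sites lay at ends of neighbouring genes. The one at Copz1, 14.1 kb from Nfe2, was at places 2394 and 1835 in CM +Dox cells and 5078 to 11757 in the 6 others, a log2 difference of -1.86 with the same p-values. The one overlapping Cbx5 and Hnrnpa1, 7.4 kb from Nfe2, was at 4158 and 4982 in CM +Dox cells and 6447 to 15258 in the others, a log2 difference of -0.94 (exact permutation p = 0.0714, adjusted p = 0.135). By percentile rank that site did not stand apart, at 48.8 and 48.7 in CM +Dox, against 5.5 to 52.8. Whether such peaks act on Nfe2 or on those genes was not tested. A further site, inside Nfe2 (chr15:103252736-103253066), was called in fusion cells only: it ranked 41.5 and 70.2 in CM +Dox cells and 37.5 in CM -Dox replicate 2, and was not called in CM -Dox replicate 1 or in any control library.

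Klf1 had 2 RUNX1 sites called in all 8 libraries, both at ends of other genes. The site 8.1 kb upstream of the start, in Gcdh, was at places 1549 and 1398 in CM +Dox, against 6350 and 3912 in CM -Dox, 5498 and 5049 in Control +Dox and 3100 and 2556 in Control -Dox cells, a log2 difference of -1.51 (exact permutation p = 0.0357, adjusted p = 0.0805). By percentile rank the groups overlapped there, at 80.9 and 85.6 in CM +Dox, against 52.5 to 81.5. The site 29.7 kb upstream, in Syce2, overlapped between the groups (log2 difference -0.10, adjusted p = 0.817 in the exact permutation test). The strongest CHD7 site of the window, in Syce2 30.2 kb upstream (chr8:84871107-84872391), ranked 96.9 and 87.7 in CM +Dox, 68.8 and 81.7 in CM -Dox, 17.7 in Control +Dox replicate 1 (uncalled in replicate 2) and 23.5 and 36.0 in Control -Dox cells. Both fusion conditions thus stood above the controls there, induced or not. With the site inside Klf1 missing from both CM +Dox lists, no RUNX1 site within the gene was called under induced fusion.

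Gata1 had 1 RUNX1 site in its window, at an end of Hdac6, 19.9 kb downstream of the Gata1 start (chrX:7947812-7948174). It ranked 55.3 and 41.7 in CM +Dox, 35.4 and 12.3 in CM -Dox and 15.6 in Control -Dox replicate 1, and was not called in the other 3 libraries. Its call in Control -Dox rests on the library whose tag goes against its label. The 1 CHD7 site, at an end of Glod5, was called in 7 libraries. At these thresholds no RUNX1 site of the Gata1 window was called in all 6 libraries without induced fusion. The gene thus adds no site to the RUNX1 counts that require those 6. Its site is among the 39, and among the 20 called in both CM +Dox libraries.

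CHD7 was called in all 6 libraries without induced fusion at 9 sites. Of these, 6 were called in both CM +Dox libraries, against 84% of all such sites. Another 2 were called in neither, against 3.65%, and 1 in 1 library, against 12.3%. The 2 are the Gfi1 site 33.5 kb upstream and a site at an end of Cbx5 in the Nfe2 window (chr15:103238457-103239317), which ranked 24.3 and 77.1 in CM -Dox, 9.5 and 80.3 in Control +Dox and 82.7 and 56.7 in Control -Dox cells. This Cbx5 site lay within 1 kb of another CHD7 site that was called in all 8 libraries, and when sites were merged over both antibodies it no longer met the pattern. Of the 13 CHD7 sites called in both CM +Dox libraries, 1 was missing from the 6 other lists, against 8.26% of all such sites. That site lay in Cbx5 (chr15:103220813-103221115) at ranks of 24.7 and 28.7. The count was 4 without CM +Dox CHD7 replicate 1, 5 without its replicate 2 and 2 without Control +Dox CHD7 replicate 2. Of the 6 CHD7 sites called in all 8 libraries, 1 had both CM +Dox places below the 6 others, against 9.5% of all such sites: the Gfi1b site 36.7 kb downstream (chr2:28585132-28585472), at 14499 and 9202 in CM +Dox cells and 1286 to 8016 in the others. Another had both above, against 4.64%: a site in Copz1 (chr15:103280389-103281552), at 1822 and 1529 in CM +Dox cells and 1919 to 20520 in the others. List length also bears on these places, with 33462 and 31688 peaks in the CM +Dox lists. By percentile rank the Gfi1b site overlapped, at 56.6 and 70.9 in CM +Dox, against 62.7 to 96.1. With equal lists of 16323 peaks, 1 of 3 such sites stood below (8.26% of all such sites) and 0 above (5.23%). In the exact permutation test (28 choices, two-sided) no CHD7 site passed an adjusted p of 0.05, the smallest being 0.889, and 1392 of 85223 sites (1.63%) and 3 of 67 here had an unadjusted p of 0.0357.

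A CHD7 peak in at least 1 library lay on 20 of the 39 RUNX1 sites. RUNX1 sites called in all 8 libraries had no CHD7 peak in any library at 6 of 15, against 10.4% of all such sites, and CHD7 in all 8 at 2 of 15, against 31.7%. Of the 6 without CHD7, 5 were in the Zfpm1 window and 1 in the Klf1 window. The 2 with CHD7 throughout were the Gfi1 site 23.8 kb upstream and the Cbx5 and Hnrnpa1 site. RUNX1 sites missing from CM +Dox had no CHD7 in any library at 3 of 5, against 26%. Of the 67 CHD7 sites, 45 had no RUNX1 peak in any library, against 81.4% of all CHD7 sites. Of the 6 CHD7 sites called in all 8 libraries, 2 had no RUNX1 peak in any library, against 23% of all such sites; they were the Gfi1b site 36.7 kb downstream and the Copz1 site.

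**Figure D4:**
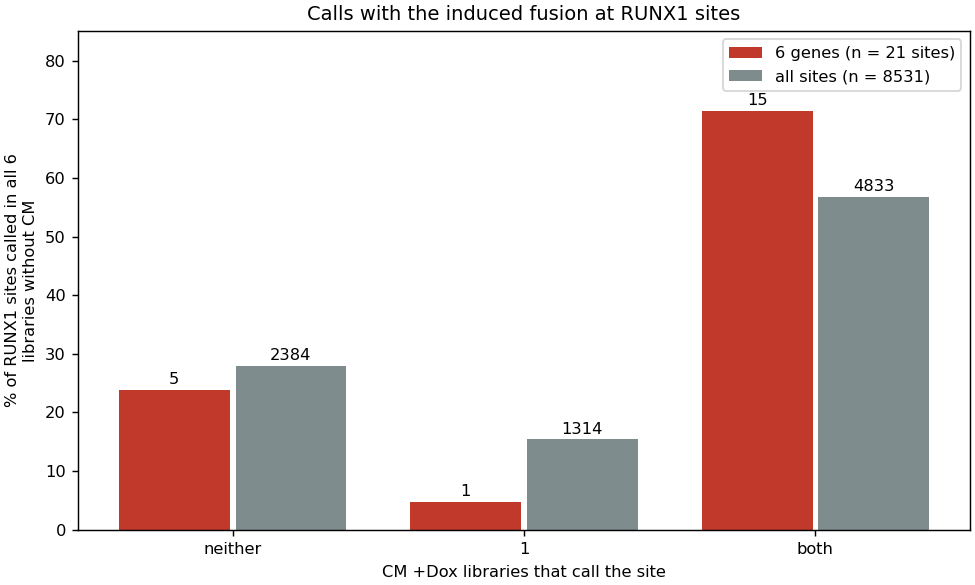
Share (percent) of the RUNX1 sites called in all 6 libraries without induced fusion that were called in neither, 1 or both CM +Dox libraries, for the 6 windows (red) and all sites of the genome (grey); the number over each bar is its count of sites. The share of RUNX1 sites missing from CM +Dox is 23.8% here and 27.9% over all sites.

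The remaining comparisons of conditions had 2 libraries on each side, where the smallest exact permutation p is 0.33 and 0.05 cannot be reached, and were read as counts only. They share libraries with each other. Under CM +Dox against CM -Dox, RUNX1 was missing from both CM +Dox lists at 8 of 28 sites called in both CM -Dox libraries (35.4% of all such sites), and 0 of 20 went the other way (6.06%). Doxycycline alone, Control +Dox against Control -Dox, gave 0 of 24 (3.16%) and 0 of 22 (1.39%). Under CM +Dox against Control +Dox the counts were 5 of 22 (35.1%) and 2 of 20 (9.05%). The uninduced construct, CM -Dox against Control -Dox, gave 1 of 24 missing (6.99%) and 3 of 28 found only in CM -Dox (9.54%). Read against Control -Dox replicate 2 alone, without the library whose tag goes against its label, the doxycycline counts were 2 of 27 (10.3%) and 0 of 22 (5.7%), and those of the uninduced construct 4 of 27 (12.8%) and 6 of 28 (16.8%).

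For CHD7, sites missing from CM +Dox but in both CM -Dox libraries were 3 of 15 (10.9% of all such sites), with 2 of 13 the other way (15.1%). For Control +Dox against Control -Dox they were 0 of 14 (9.76%) and 2 of 13 (9.56%), and for CM -Dox against Control -Dox 0 of 14 (8.94%) and 1 of 15 (18.9%). CM +Dox against Control +Dox gave 4 of 13 missing (12.6%) and 1 of 13 found only in CM +Dox (27.4%).

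Peaks in the 6 windows numbered 22 and 25 in the CM +Dox RUNX1 libraries (mean 23.5 ± 2.12, SD, n = 2), against 25 to 31 in the 6 others (28 ± 2.00, SD, n = 6). The CM +Dox lists were shorter, and the share of their peaks in the windows was higher: 2.57 to 2.70 peaks per 1000 of the list, against 1.92 to 2.09. The reason for the higher share was not tested. For CHD7 the windows held 22 and 27 peaks in CM +Dox libraries, against 17 to 37, or 0.657 to 0.852 per 1000 of the list, against 0.981 to 1.16. Counts per window and share of the list thus point in opposite directions for RUNX1.

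Partners and targets of these factors were taken from 5 further gene lists, given with the same windows. FOG1 partners in NuRD had 20 RUNX1 sites called in all 6 libraries without induced fusion, of which 5 were missing from both CM +Dox lists. Chd4, the NuRD remodeller, had 2 of these, Gatad2b 2 and Mta1 1. GFI1 and GFI1B corepressors had 3 of 8 missing, 2 around Rcor1 and 1 around Rcor2, both CoREST genes. Rcor3, also a CoREST gene, had 1 of the 8 sites, with 0 missing. Partners and rivals of NFE2 had 4 of 24, with 2 around the repressor gene Bach2 and 1 each around the small MAF genes Mafk and Maff. Mafg, also a small MAF gene, had 3 of the 24 sites, with 0 missing. Regulators of KLF1 targets and globin had 0 of 15 missing. Red cell and platelet target genes had 5 of 29, 2 around Gp9 and 1 around Gp1ba, both platelet adhesion receptor genes, among them. The 5 lists' shares of 25%, 37.5%, 16.7%, 0% and 17.2% stand beside 27.9% of all such sites. CHD7 was missing from both CM +Dox lists at 0 of the 2 to 20 sites per list called in all 6 other libraries, where 3.65% of all such sites were missing, so a count of 0 says little at these numbers. Of the CHD7 sites called in both CM +Dox libraries, those missing from all 6 others were 4 of 28 around the KLF1 and globin regulators and 2 of 31 around the target genes, against 8.26% of all such sites, and 0 of 25, 0 of 8 and 0 of 14 in the lists of FOG1, GFI1 and NFE2 partners.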

How the data were processed

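RUNX1 and CHD7 peaks were measured by ChIP-seq in 16 libraries, 1 peak list each, so the authors called peaks per sample. Bowtie2 2.0.6, MACS2 2.0.10 and the mm10 build are named in the submitters' processing notes. Which library served as control for the calls, and how deeply each was sequenced, is not given in the sources used here. Each score that the authors deposited is the −log10 of a p-value, and lists ended at p-value thresholds of 1e-09 (5 RUNX1 lists), 1e-07 (3 RUNX1 lists) or 0.01 (8 CHD7 lists). The 1 IgG sample was not analysed here.

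On chromosomes 1 to 19, X and Y, peaks were merged per antibody where they shared 1 bp (pandas 2.3.3, checked against bedtools 2.31.1 and on simulated calls). Members and gene lists were chosen with earlier results of these data known. Gene positions came from RefSeq GRCm38.p6; exons were not used. Calls in CM +Dox (2 libraries) were set against the 6 others by a two-sided exact permutation test with Benjamini-Hochberg adjustment over all sites of the antibody (scipy 1.17.1). The measure of place was added after the data were seen. Sites named are all those missing from or found only in CM +Dox, all RUNX1 sites called in all 8 libraries, and the 3 sites per gene and antibody called in most libraries; other sites were chosen after their values were seen. Nothing in the labels says that replicates came from separate cultures, so p-values reflect only how these samples spread, possibly for technical reasons. Same-numbered RUNX1 libraries deviated together (6 pairs, correlations of 0.15 to 0.44), so the numbers were taken as pairing them in the replicate block. The main exact permutation tests, over 28 choices, left this pairing out. With the block no p can be below 0.0625. The highest correlation was between the control conditions, whose replicate 1 lists ended at 1e-09 and replicate 2 lists at 1e-07. Threshold and replicate number cannot be told apart there. Alternatives tried were a higher score, equal list lengths, a common threshold, a larger overlap, joint merging, other windows, the replicate block and leaving out each library.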

Additional observations from a re-analysis of the deposited data

Results flagged for a closer look

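Among 44 groups of 6 libraries without induced fusion, 5 held a library far from the others by Dixon's criterion. Its rate of about 1 group in 20 by chance holds for continuous values drawn alike. These groups mix conditions and include tied counts and ranks near 100, so the 5 cannot be weighed against that rate. CM -Dox replicate 2 had 3 RUNX1 peaks in the Gfi1 window where the other 5 libraries had 2, and 9 CHD7 peaks there where the others had 2 or 3. RUNX1 at the Gfi1 site 33.5 kb upstream ranked 99.7 in Control +Dox replicate 1, below the 99.9 to 100 of the others. RUNX1 at the site inside Klf1 ranked 74.9 in Control +Dox replicate 1, above the other 5. CHD7 at the Copz1 site in the Nfe2 window (start 103280389) ranked 36.1 in Control +Dox replicate 2, below the other 5.

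The 23 RUNX1 and 18 CHD7 sites named by the rule above were read for opposite directions with doxycycline in fusion and control cells. The share over all sites of the genome was not computed, so whether the count stands out cannot be told. At 7 sites, both CM +Dox libraries stood to one side of the CM -Dox places. Both Control +Dox libraries there stood to the opposite side of the Control -Dox places. The difference between the 2 directions was not tested at any of these 7 sites. For RUNX1, the Control -Dox places include replicate 1, whose peak names are tagged +Dox against its label. The directions were not read again without it. An uncalled peak counts here as lower than any place. Higher and lower refer to place, which shifts with list length, and the lists differed in length. Percentile ranks in CM +Dox and CM -Dox overlapped at the Zfpm1 site and the Gfi1 site given below. For RUNX1 at the Zfpm1 site they were 69.8 and 81.0, against 79.6 and 83.5. For CHD7 at the Gfi1 site they were 81.5 and 94.9, against 91.8 and 97.2. For CHD7 at the Copz1 site, CM +Dox replicate 1 and CM -Dox replicate 2 both ranked 94.5. For RUNX1 at the Gfi1b site 22.4 kb downstream, Control +Dox replicate 2 and both Control -Dox libraries ranked 99.3. RUNX1 stood lower in fusion cells and higher in control cells with doxycycline at the Gfi1b site 30.3 kb downstream (4793 in 1 CM +Dox library and uncalled in the other, against 3077 and 4159 in CM -Dox; 6227 and 5049 in Control +Dox, against 10491 and 6897 in Control -Dox). The same held at the Gfi1b site 22.4 kb downstream (2213 and 821 in CM +Dox, against 359 and 275 in CM -Dox; 73 and 83 in Control +Dox, against 105 and 104 in Control -Dox). It also held at the site inside Klf1, uncalled in CM +Dox, against 7531 and 10765 in CM -Dox, with 3430 and 6768 in Control +Dox, against 7578 and 9589 in Control -Dox. RUNX1 stood higher in fusion cells and lower in control cells at the Klf1 site 8.1 kb upstream (1549 and 1398 in CM +Dox, against 6350 and 3912 in CM -Dox) and at the Zfpm1 site 32.9 kb downstream (2453 and 1843 in CM +Dox, against 2726 and 2665 in CM -Dox). CHD7 stood higher in fusion cells and lower in control cells at the Copz1 site (1822 and 1529 in CM +Dox, against 3116 and 1919 in CM -Dox), and lower in fusion cells and higher in control cells at the Gfi1 site 23.9 kb upstream (4940 and 1529 in CM +Dox, against 1375 and 1032 in CM -Dox).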

How the results depend on the processing

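Of the alternative values for the main counts and the per-site tests of calls, 119 stayed within 1.5 times the reported value and 21 did not. The 119 include the per-site tests, which gave 0 sites in every setting. In some settings no other value was possible, because the smallest p was too large. Keeping only peaks that reach the pooled median score (29.1 for RUNX1, 3.81 for CHD7), RUNX1 sites missing from CM +Dox numbered 3, those called in all 8 libraries 8, those placed below 3 and above 3, and CHD7 sites missing 1. With lists of equal length (8140 RUNX1 and 16323 CHD7 peaks), RUNX1 sites missing numbered 2, found only in CM +Dox 4 and placed above 3, so the balance of missing over found only (5 against 0 with whole lists) turned round. Merging over both antibodies left 1 CHD7 site missing, and the Cbx5 CHD7 site then showed a difference in calls of 0.00. In a window of 5 kb, RUNX1 sites missing numbered 2, called in all 8 libraries 6, placed below 1 and above 2, and CHD7 sites missing 0 and found only in CM +Dox 0. Leaving out 1 library in turn gave 5 to 6 RUNX1 sites missing, 15 to 16 in all 8 libraries, 0 to 1 found only in CM +Dox, 5 to 6 placed below and 5 to 6 above, with 2 to 3 CHD7 sites missing and 1 to 5 found only in CM +Dox. With the replicate block the RUNX1 and CHD7 sites missing stayed at 5 and 2, and comparing places only within a replicate number (added after seeing the data) gave 6 RUNX1 sites below (18.1% of all such sites) and 5 above (42.4%). The smallest p over its 16 choices is 0.0625, so the block leaves 0 sites with an unadjusted p under 0.05, and 0 passed the adjusted test. Same-numbered CHD7 libraries did not deviate together (correlations of -0.05 to 0.09). Within replicate number 1, 6 of 23 RUNX1 sites were missing from CM +Dox, against 40.9% of all such sites, and within number 2, 5 of 23, against 37%. For CHD7 these were 2 of 10 (17.2%) and 5 of 13 (15.1%). Requiring a larger overlap gives the same sites by construction, since each peak lies inside its site. The cause of these differences was not tested, beyond that shorter lists and a smaller window hold fewer sites. Read depth is unknown, so a peak that was not called may lie just under a list's threshold.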
